A study of Rattus norvegicus with 6 samples.

Results

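The genes described here are 10 brakes on MAP kinase signalling, 7 dual-specificity phosphatases (Dusp1, Dusp4, Dusp5, Dusp6, Dusp10, Dusp14 and Dusp16), the Sprouty genes Spry2 and Spry4, and Spred1. They were taken by name, all 10 are among the 26126 entries of the count table, and all 10 passed the low-count filter with 14488 entries in all. They were proposed with results of this same comparison known, so their fold changes and calls below describe them and support nothing further. RNA came from H9c2 cells, an established line from embryonic rat myocardium that grows as myoblasts, in 6 RNA sequencing libraries. The first group is 3 libraries from cells given adPERK, an adenovirus for PERK overexpression, and the second is 3 libraries from cells given a control adenovirus. Both groups went through simulated ischemia-reperfusion, with an acidic buffer of pH 6.2 that held 2-deoxyglucose and lactate, under a flush of 95% nitrogen and 5% carbon dioxide for 30 min in a chamber then sealed for 1.5 to 3.5 h. The labels name no reperfusion time, no viral dose and no separate cultures, so a p-value here measures library-to-library spread that may be technical only. The line was grown with 10% fetal bovine serum, and the sources used here do not say whether serum was present at harvest.

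In the mitogen-activated protein kinase (MAP kinase) cascades, growth factor receptors act through Ras, Raf and MEK on ERK, and stress acts through parallel chains on p38 and JNK. Dual-specificity phosphatases remove the activating phosphates from these kinases, and several are transcribed in response to the kinases they switch off. Sprouty and SPRED proteins act higher up, at the membrane, and hold back the step from receptor to Ras and Raf. In heart cells these brakes are known for limiting ERK, p38 and JNK activity after stress and growth stimuli.

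The promoters shown first are those of Dusp1 and Dusp6, the 2 genes that rose, and of Dusp5, the 1 gene with a CArG box, the site bound by serum response factor. Each is the 250 bases before the annotated start, 5′ to 3′ on the gene's strand, from RefSeq's GRCr8 table, and capitals mark the motif matches named next. A RefSeq promoter was matched for 9 of the 10 genes, Dusp4 being the exception.
Dusp1: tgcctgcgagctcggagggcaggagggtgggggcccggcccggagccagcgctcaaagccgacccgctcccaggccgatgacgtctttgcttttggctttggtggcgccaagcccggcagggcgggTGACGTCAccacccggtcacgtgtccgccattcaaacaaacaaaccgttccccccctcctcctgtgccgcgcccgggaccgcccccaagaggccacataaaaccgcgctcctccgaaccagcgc
Dusp6: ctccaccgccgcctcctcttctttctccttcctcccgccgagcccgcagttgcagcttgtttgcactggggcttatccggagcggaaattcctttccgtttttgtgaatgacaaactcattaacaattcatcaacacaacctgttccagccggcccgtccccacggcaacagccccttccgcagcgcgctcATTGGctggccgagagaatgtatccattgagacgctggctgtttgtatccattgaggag
Dusp5: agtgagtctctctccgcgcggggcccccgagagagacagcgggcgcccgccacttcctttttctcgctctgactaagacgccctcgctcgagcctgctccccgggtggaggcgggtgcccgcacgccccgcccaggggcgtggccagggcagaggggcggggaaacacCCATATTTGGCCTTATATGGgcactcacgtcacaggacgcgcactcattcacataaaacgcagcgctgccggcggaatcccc
The Dusp1 stretch is chr10:17184603-17184852 on the plus strand of GRCr8, the Dusp6 stretch chr7:35979354-35979603 on the plus strand and the Dusp5 stretch chr1:262543524-262543773 on the plus strand. In Dusp1 the capitals are a cAMP response element, TGACGTCA, at -124 to -117, where -1 is the base before the start. In Dusp6 they are an inverted CCAAT box at -59 to -55. In Dusp5 they are a pair of CArG boxes side by side at -82 to -73 and -72 to -63.

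Motifs were searched on both strands of the same window in all 33469 RefSeq promoters of full length. The shares of all promoters are per promoter. A gene is counted with a match at any of its starts, and the 9 genes have 12 promoters, so the 2 counts are in unlike units. The full cAMP response element was in 1.59% of them and, among the 9 genes, in Dusp1. A CArG box was in 1.5% of all promoters and, among the 9 genes, in Dusp5. The AP-1 site TGANTCA was in 6.34%, and among the 9 in Dusp14, at -89 to -83 of the third of its 3 listed starts. CCAAT was in 34% of all promoters and in 4 of the 9 genes, Dusp6, Dusp10, Dusp14 and Dusp16, and TATAAA was in 12.9% and in Dusp14. The ETS site CCGGAAGT (3.1% of all promoters) and TGATGNAA, the core of the site bound by ATF4 with C/EBP factors (3.4%), were found in none of the 9 windows. Spry2, with 2 listed starts, Spry4 and Spred1 held none of the 7 motifs. A match describes the letters in this window and no more.

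**Figure D1:**
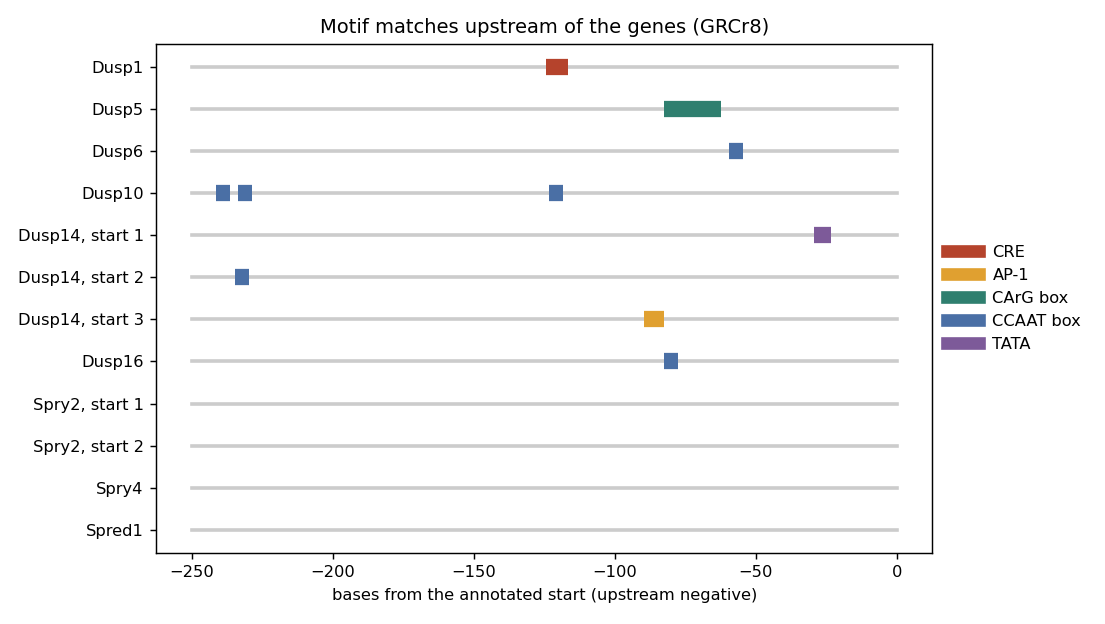
Motif matches in the 250 bases before each annotated start of the 9 genes with a RefSeq promoter, with distance from the start on the horizontal axis in bases. Coloured blocks are matches; the Dusp1 cAMP response element lies at -124 to -117, the paired Dusp5 CArG boxes at -82 to -63, and Spry2, Spry4 and Spred1 have no block.

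Total counts were 89798433 to 119087414 in the libraries labelled PERK and 77923398 to 111052659 in the control libraries. Low counts recur at steps of 5 or 6, so fewer independent fragments than counts may stand behind a value, and a gene listed at 0 is held against a limit of 18 counts, 3 steps of 6. Control replicate 3 stood apart, with counts in 45.4% of 1090 olfactory receptor entries, genes used mainly in the nose, against 6.24% to 14.5% in the other 5 libraries. Eif2ak3, which encodes PERK, was 26.3 ± 0.318 CPM in PERK-labelled and 25.8 ± 1.60 CPM in control libraries (SD, n = 3 each; log2 fold change 0.03, SE 0.06, edgeR adjusted p = 0.887). The targeted gene therefore does not check the labels, and whether this count would include a transgene was not tested. The myoblast identity of the line was read from 17 striated muscle and myoblast markers, of which 15 were tested. Those with the highest CPM, which is not scaled for length, were Cdh15, M-cadherin, at 717 ± 26.0 CPM in PERK-labelled and 687 ± 22.0 CPM in control libraries, and Myog, myogenin, which was lower at 400 ± 9.27 CPM in PERK-labelled libraries, against 486 ± 10.1 CPM in control libraries (edgeR adjusted p = 0.0137). Of the 15 tested, 10 had a log2 fold change above 0 and 5 below, and Myog was the 1 that passed. Groups did not overlap for 4 with PERK-labelled libraries higher and for 1 lower, where 9.67% and 8.51% of all entries did. Among the 4, Tnnc1, troponin C, was 382 ± 12.3 CPM in PERK-labelled and 343 ± 6.76 CPM in control libraries (edgeR adjusted p = 0.15). Not all of the 17 were high. Myod1 averaged 80.1 CPM in PERK-labelled and 86.1 CPM in control libraries, but Myf5 was listed at 0 in all 6 libraries. Des and Ckm averaged 5.23 and 3.99 CPM in PERK-labelled and 5.48 and 3.82 CPM in control libraries. Among markers also used in heart, Tnnt2, cardiac troponin T, was 173 ± 11.3 CPM in PERK-labelled and 169 ± 5.56 CPM in control libraries. Actc1 was 5.38 ± 0.516 CPM in PERK-labelled and 5.50 ± 0.392 CPM in control libraries, and Gata4 4.41 ± 0.338 CPM in PERK-labelled and 3.37 ± 0.793 CPM in control libraries, with no overlap for Gata4. None of these 3 passed the test. Nkx2-5 and Myh6 were near 0, at 0.167 and 0 CPM on average in PERK-labelled and 0.0992 and 0.0599 CPM in control libraries. Endothelial markers summed to 0.638 to 1.33 CPM in PERK-labelled and 1.35 to 2.14 CPM in control libraries, with Tek the 1 tested gene of 7. Leukocyte markers summed to 9.97 to 11.0 CPM in PERK-labelled and 8.54 to 12.4 CPM in control libraries, mostly Cd14, with Lyz2 at 0 and Ptprc at 0 in PERK-labelled libraries and 0.0899 CPM in control libraries. Epithelial markers summed to 53.2 to 54.2 CPM in PERK-labelled and 48.7 to 52.8 CPM in control libraries, mostly Krt8 and Krt7, with Epcam at 0 CPM in PERK-labelled and 0.0214 CPM on average in control libraries. The part of these markers in the results below was not tested.

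Of the 10 genes, Dusp1 and Dusp6 rose in the PERK-labelled libraries and none fell, by edgeR's quasi-likelihood test adjusted over all 14488 entries at 0.05. Across all entries 0.421% were called, 0.311% higher and 0.11% lower. Since the genes were chosen on this comparison, nothing is read from the difference between these shares. In bulk RNA, fewer expressing cells and less RNA per cell cannot be told apart. The log2 fold changes of the 10 had a median of 0.30, with 7 above 0 and 3 below, while over all tested entries the median was -0.0045. Groups did not overlap, with PERK-labelled libraries higher, for 4 of the 10 (Dusp1, Dusp4, Dusp6 and Spry4), where 9.67% of all entries did so, and in the other direction for 0 of the 10, where 8.51% did. Without control replicate 3 the calls among the 10 numbered 0, and over all entries 23 in place of 61. Across the fits that leave out 1 library they numbered 0 to 1 among the 10 and 12 to 38 over all entries.

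**Figure D2:**
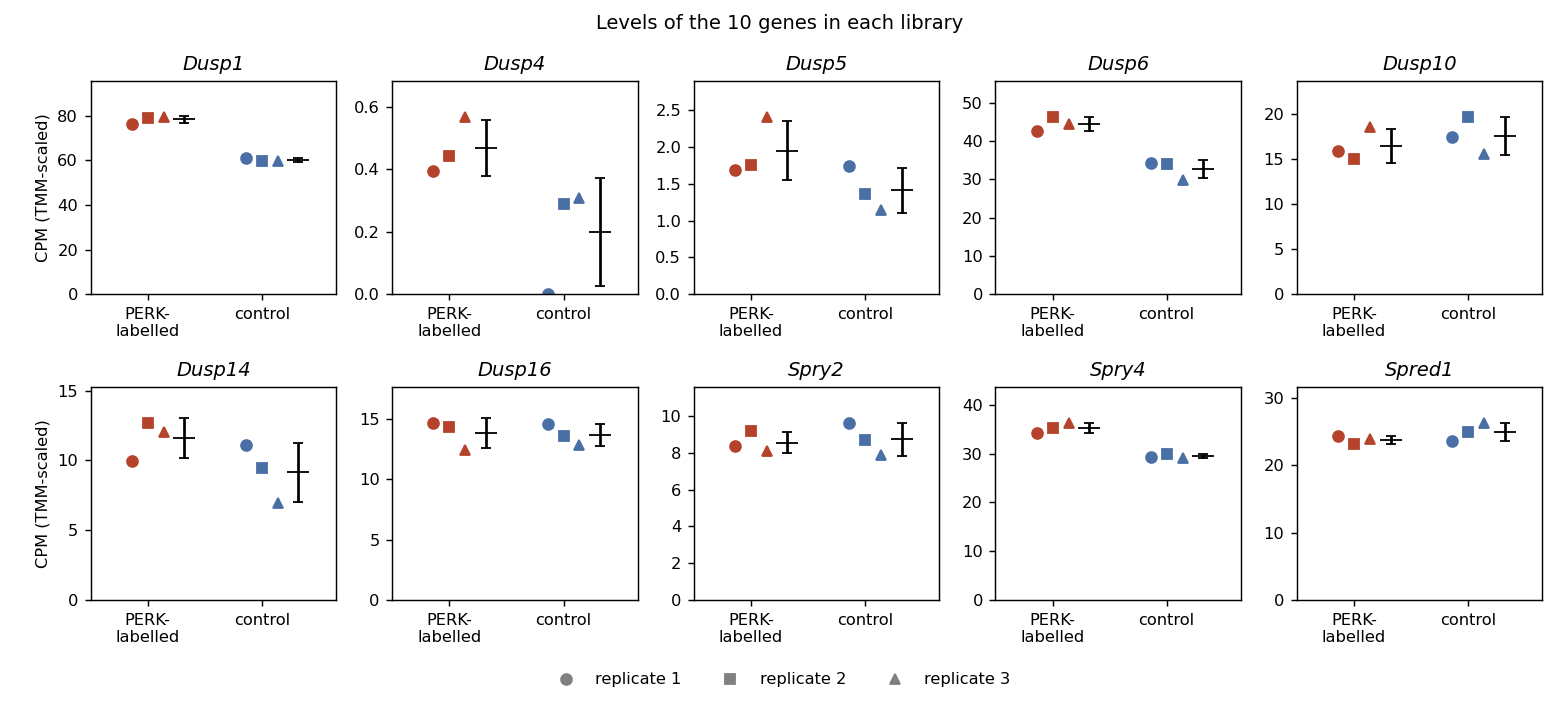
Level of each of the 10 genes in CPM of the TMM-scaled total (vertical axes start at 0), PERK-labelled libraries in red and control libraries in blue, 1 symbol per replicate number; black bars are mean ± SD over 3 libraries. Dusp1, Dusp4, Dusp6 and Spry4 have no overlap between groups, and in Dusp10, Dusp16, Spry2 and Spred1 the symbols of the groups interleave.

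Dusp1 encodes MKP-1, a nuclear phosphatase that is made within minutes of stress or growth factor signals and acts on p38, JNK and ERK. It stood at 76.4, 79.0 and 79.6 CPM in PERK replicates 1 to 3, against 61.0, 59.8 and 59.5 CPM in control replicates 1 to 3. Every PERK-labelled library lay above every control library, and the libraries within a group were close together. This is a log2 fold change of 0.38 (SE 0.04), a ratio of 1.30, with an edgeR adjusted p of 0.0137 and rank 15 by p among all tested entries. The biological coefficient of variation that edgeR fitted was 6.24%. Without control replicate 3 the log2 fold change was nearly the same, 0.38, and the edgeR adjusted p was 0.0594. The call also ended without control replicate 2 (0.0614) and without PERK replicates 1, 2 and 3 (0.0578, 0.0586 and 0.0683), and it held without control replicate 1 (0.0412). The authors' deposited table gives Dusp1 a log2 fold change of 0.39 with an adjusted p of 0.0177, and of the 17483 entries with an adjusted p there, 2.27% are under 0.05.

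Dusp4 and Dusp5 are the other nuclear, inducible phosphatases of the group, Dusp5 being specific to ERK. Dusp4, or MKP-2, was barely detected. Its counts were 39, 53 and 51 in PERK replicates 1 to 3, against 0, 24 and 24 in control replicates 1 to 3, which is 0.395, 0.443 and 0.570 CPM against 0, 0.290 and 0.308 CPM. The PERK-labelled libraries were the higher 3, but 1 control library is listed at 0 and the counts are only a few times the limit of 18. The log2 fold change of 1.24 had an SE of 1.12, and Dusp4 did not pass (edgeR adjusted p = 0.74). Its value was 0.65 without control replicate 1 and 1.71 without control replicate 3, and 1.93 with a replicate block and 2.98 with limma voom.

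Dusp5 stood at 1.68, 1.75 and 2.41 CPM in PERK replicates 1 to 3, against 1.74, 1.35 and 1.14 CPM in control replicates 1 to 3. The groups overlapped, with control replicate 1 inside the range of the PERK-labelled libraries and PERK replicate 3 above all others. The difference came to 0.46 on the log2 scale (SE 0.23; edgeR adjusted p = 0.509), as large as that of Dusp6 but with a wider spread. It was 0.64 without control replicate 1, 0.33 without control replicate 3 and 0.28 without PERK replicate 3. A lncRNA, LOC134485251, overlaps Dusp5 by gene span in the GRCr8 annotation, with exons and strand not compared. Counting by strand is not stated, and whether the pair shares reads was not tested.

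Dusp6 encodes MKP-3, a cytoplasmic phosphatase specific to ERK and a classical product of ERK activity. It stood at 42.6, 46.4 and 44.3 CPM in PERK replicates 1 to 3, against 34.3, 33.9 and 29.9 CPM in control replicates 1 to 3. All PERK-labelled libraries lay above all control libraries, and control replicate 3 was the lowest. On the log2 scale the difference was 0.44 (SE 0.06), a ratio of 1.36, with an edgeR adjusted p of 0.0286 and rank 43 by p. Without control replicate 3 it was 0.38 (edgeR adjusted p = 0.0594), and the call ended without any other single library too, at adjusted p from 0.0642 without control replicate 1 to 0.152 without PERK replicate 3. The authors' deposited table gives Dusp6 a log2 fold change of 0.45 with an adjusted p of 0.0566, outside the threshold that the edgeR test passed.

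Dusp10 (MKP-5) and Dusp16 (MKP-7) prefer JNK and p38 over ERK, and neither passed the test. Dusp10 stood at 15.9, 15.0 and 18.5 CPM in PERK replicates 1 to 3, against 17.5, 19.7 and 15.5 CPM in control replicates 1 to 3, and the groups were interleaved. It had a log2 fold change of -0.10 (SE 0.11; edgeR adjusted p = 0.807), and with 1 library left out this ran from -0.19 without PERK replicate 3 to -0.0070 without control replicate 2. Dusp16 stood at 14.7, 14.4 and 12.4 CPM in PERK replicates 1 to 3, against 14.6, 13.6 and 12.8 CPM in control replicates 1 to 3. PERK replicate 3 was the lowest of the 6 and PERK replicate 1 the highest. Its difference was 0.02 on the log2 scale (SE 0.10; edgeR adjusted p = 0.969) and changed sign in 4 of 16 alternative fits. Neither p shows that the level was the same in both groups.

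Dusp14, or MKP-6, is a small atypical phosphatase that lacks the kinase-binding domain of the others. It stood at 9.99, 12.7 and 12.1 CPM in PERK replicates 1 to 3, against 11.1, 9.43 and 6.93 CPM in control replicates 1 to 3. The groups overlapped, because control replicate 1 was above PERK replicate 1, and control replicate 3 was the lowest of the 6. The log2 fold change of 0.34 (SE 0.18, edgeR adjusted p = 0.516) was 0.17 without control replicate 3 and 0.50 without control replicate 1. The pseudogene Rps15a-ps2 overlaps Dusp14 in the GRCr8 annotation, with the same limit as for Dusp5. A near copy, Dusp14l1, may share reads with it and makes the single-gene value uncertain. Dusp14l1, chosen after its values were seen, averaged 1.41 ± 0.0907 CPM in PERK-labelled and 1.17 ± 0.0650 CPM in control libraries (SD, n = 3 each; log2 fold change 0.27, edgeR adjusted p = 0.657).

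**Figure D3:**
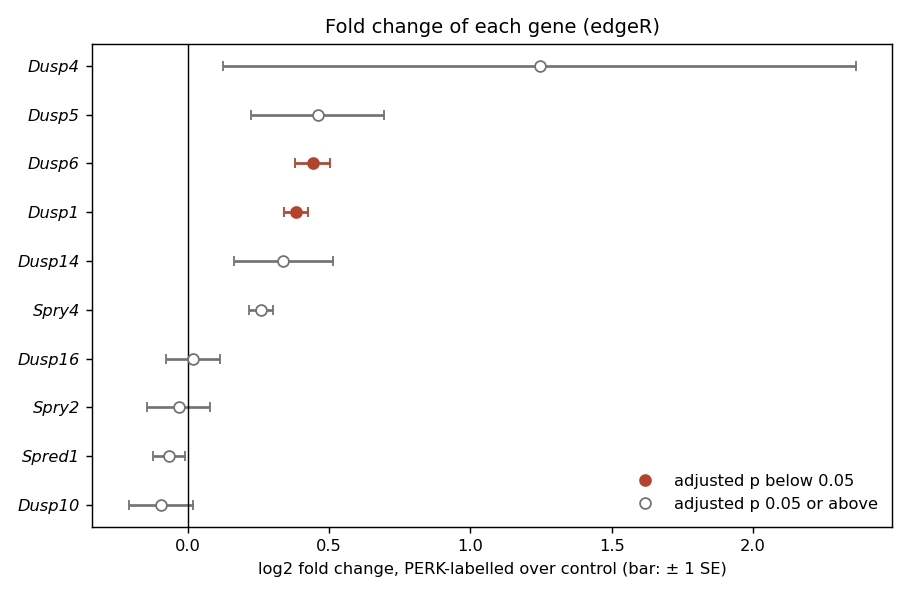
Log2 fold change of each of the 10 genes, PERK-labelled over control, with bars of 1 SE from edgeR; filled red points have adjusted p below 0.05. Dusp1 (0.38) and Dusp6 (0.44) are filled, Dusp4 (1.24) and Dusp5 (0.46) are as far or farther from 0 with wider bars, and 4 genes lie within 0.1 of 0.

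Spry2 and Spry4 encode Sprouty proteins, membrane-bound inhibitors of signalling from receptor tyrosine kinases to ERK. Spry4 stood at 34.2, 35.2 and 36.3 CPM in PERK replicates 1 to 3, against 29.3, 29.9 and 29.0 CPM in control replicates 1 to 3. The groups did not overlap, and libraries of a group differed by little. The log2 fold change of 0.26 (SE 0.04) fell just outside the threshold with an edgeR adjusted p of 0.0553, at rank 77 by p. It passed with DESeq2 (adjusted p = 0.00562), without a low-count filter (0.0466), with a minimum count of 50 (0.0422), with counts divided by 6 (0.0476) and with the robust fit (0.0448). Over the other alternatives its adjusted p ran from 0.0566 to 0.222. The authors' deposited table gives Spry4 a log2 fold change of 0.26 with an adjusted p of 0.391.

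Spry2 stood at 8.38, 9.16 and 8.06 CPM in PERK replicates 1 to 3, against 9.62, 8.70 and 7.85 CPM in control replicates 1 to 3. Control libraries were both the highest and the lowest of the 6. Spry2 had a log2 fold change of -0.03 (SE 0.11; edgeR adjusted p = 0.948), which changed sign without control replicate 1 (0.04) and without PERK replicate 3 (0.0084). Whether Spry2 and Spry4 differ in their change was not tested.

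Spred1 encodes a Sprouty-related protein that brings the Ras inhibitor neurofibromin to the membrane. It stood at 24.3, 23.2 and 23.8 CPM in PERK replicates 1 to 3, against 23.5, 24.9 and 26.3 CPM in control replicates 1 to 3. The groups overlapped, and control replicate 3 was the highest of the 6. It had a log2 fold change of -0.07 (SE 0.06; edgeR adjusted p = 0.725), and of -0.03 without control replicate 3. The pseudogene Eno1-ps25 overlaps Spred1 in the GRCr8 annotation, with the same limit.

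Control replicate 3 was the lowest of the 3 control libraries for 8 of the 10 genes, all but Dusp4 and Spred1, and for 33.5% of all tested entries. It was the lowest of all 6 libraries for 6 of the 10, Dusp1, Dusp5, Dusp6, Dusp14, Spry2 and Spry4, and for 17.9% of all tested entries. Without it the log2 fold changes of Dusp1 and Spry4 were 0.38 and 0.25, those of Dusp5, Dusp6 and Dusp14 were 0.33, 0.38 and 0.17, and those of Spry2, Dusp16 and Dusp10 were -0.10, -0.03 and -0.18. Dusp1 and Spry4 kept nearly their size without this library, while Dusp14 moved much closer to 0. The part of this library in the calls was not tested beyond these values.

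The call of Dusp1 held in 10 of 16 alternative fits, that of Dusp6 in 8, and Spry4 passed in 5. With DESeq2, 3 of the 8 genes that had an adjusted p were called, where 4.04% of the 9701 entries with a DESeq2 adjusted p were. None of the 3 changed sign in any of the 16 fits.

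**Figure D4:**
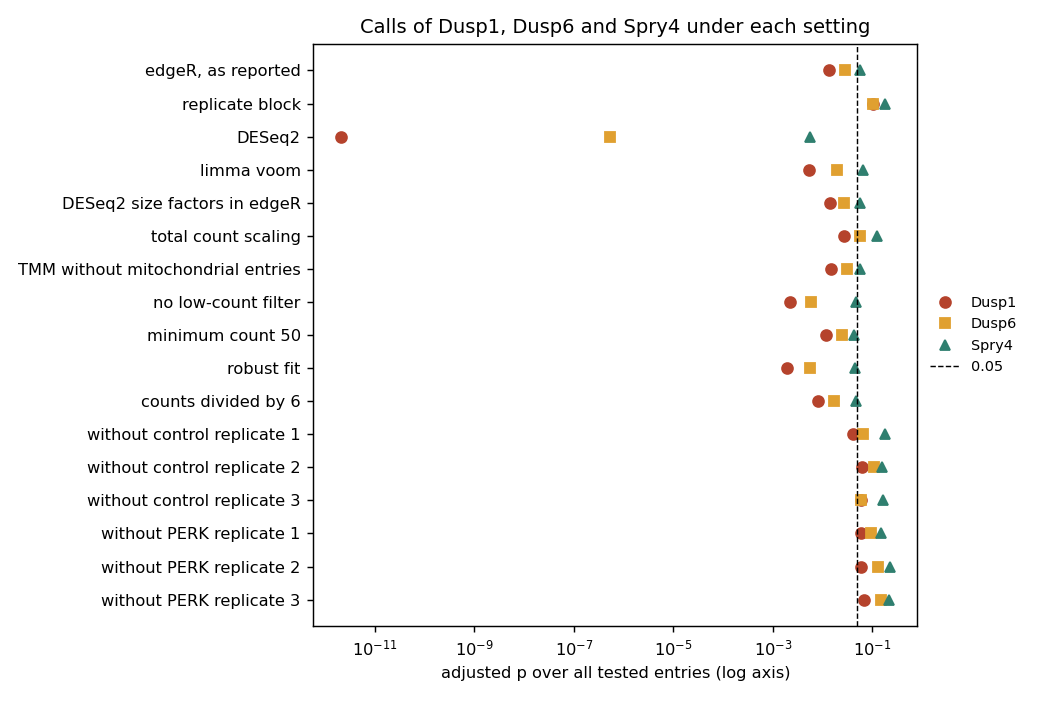
Adjusted p over all tested entries (log axis) of Dusp1, Dusp6 and Spry4 in the reported edgeR fit (top) and under each alternative; the dashed line is 0.05. Every fit that leaves out 1 library puts Dusp6 and Spry4 to the right of the line, and Dusp1 too except without control replicate 1 (0.0412), while DESeq2 puts all 3 to the left.

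The other genes of the pathway were read from 6 lists of 108 genes, of which 94 were tested. Of these 94, 3 rose and none fell, adjusted over all entries, of which 0.311% were called higher and 0.11% lower. Without control replicate 3 there were 2, and across the fits that leave out 1 library 1 to 2. At an unadjusted edgeR p under 0.05 there were 16 higher and 2 lower, where 5.94% and 5.29% of all entries were. All 3 that rose were on the list named ERK-induced transcription targets. Its name is narrower than its genes, because it also holds the transcription factors Srf, Elk1, Elk3 and Elk4. Whether ERK induced any of its genes here was not tested. Of the 25 tested genes on that list, 24 had a log2 fold change above 0, Srf, Elk1, Elk3 and Elk4 among them. Of all 14488 entries, 7061 were above 0. The median of the list was 0.27. For 15 of its genes the groups did not overlap, with PERK-labelled libraries higher, where 9.67% of all entries did. The lists were chosen with earlier results of these data known, so nothing is read from the difference to all entries.

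Fos, an AP-1 factor, was 30.2 ± 0.742 CPM in PERK-labelled and 12.96 ± 1.77 CPM in control libraries (SD, n = 3 each; log2 fold change 1.22, SE 0.09, edgeR adjusted p = 0.00322). Hbegf, a ligand of the EGF receptor and so a start of the same cascade, was 37.8 ± 1.06 CPM in PERK-labelled and 26.8 ± 1.07 CPM in control libraries (log2 fold change 0.50, SE 0.05, edgeR adjusted p = 0.00917). Egr1, a zinc finger factor with CArG boxes in its own promoter, was 21.6 ± 0.916 CPM in PERK-labelled and 14.8 ± 0.355 CPM in control libraries (log2 fold change 0.55, SE 0.06, edgeR adjusted p = 0.0163). The call of Fos held without any 1 library, that of Hbegf ended without PERK replicate 3 (adjusted p = 0.0512), and that of Egr1 ended without any 1 library (0.0531 to 0.085). Etv5, an ETS factor, was the 1 tested gene of the list below 0, at -0.02 (edgeR adjusted p = 0.977), chosen after its value was seen.

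No gene of the kinase cascades was called, where 0.421% of all entries were. With so small a share, 0 calls in lists of this size do not show unchanged levels. The list from receptor to ERK is not of kinases alone. Of its 24 tested genes 0 were called by edgeR, with a median log2 fold change of 0.03. At an unadjusted edgeR p under 0.05 there were 2 higher and 1 lower, where 5.94% and 5.29% of all entries were. The genes of this list with the highest CPM were Ptpn11, which encodes the phosphatase SHP2, and Pebp1, a Raf inhibitor, at -0.02 and 0.04 (edgeR adjusted p = 0.855 and 0.791). In the p38, JNK and ERK5 cascades 0 of 22 were called, 1 higher and 1 lower at an unadjusted p under 0.05, with a median of -0.02. Mapkapk2, a kinase downstream of p38, and Mapk14, p38 alpha itself, were at 0.01 and 0.07 (edgeR adjusted p = 0.928 and 0.551).

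Among the other phosphatases and Sprouty relatives there were no calls either, beside the same 0.421% of all entries. The 12 tested genes on the list of other dual-specificity phosphatases and relatives had a median log2 fold change of 0.04. Of these, 0 were called and 1 was higher at an unadjusted p under 0.05. That gene was Styx, a catalytically dead relative, chosen after its values were seen, at 0.60 (SE 0.14, edgeR adjusted p = 0.16). Dusp27 and Dusp3, those with the highest CPM, were at -0.08 and 0.0011 (edgeR adjusted p = 0.52 and 0.996), Dusp3 with a sign that changed in 9 of 16 fits. For Dusp27 the groups did not overlap, with PERK-labelled libraries lower, where 8.51% of all entries did so. Dusp2 and Dusp23 were listed at 0 in all 6 libraries. Of the 4 other Sprouty and SPRED genes 0 were called and 0 had an unadjusted p under 0.05, with a median of -0.23, Spred3 at 0.12 and Spred2 at -0.22 (edgeR adjusted p = 0.795 and 0.618). Of 7 tested phosphatases of other families 0 were called and 0 had an unadjusted p under 0.05, with Ppp2ca and Ppp2cb, catalytic subunits of PP2A, at 0.09 and -0.05 (edgeR adjusted p = 0.693 and 0.695).

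**Figure D5:**
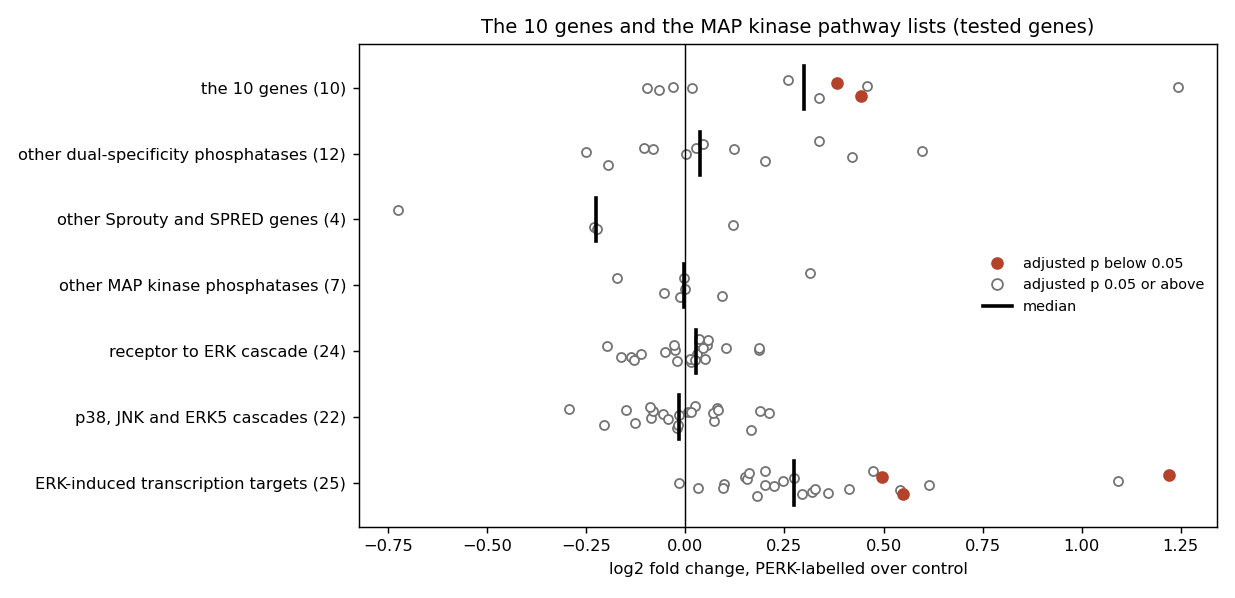
Log2 fold change, PERK-labelled over control, of the 10 genes and of the tested genes of 6 MAP kinase pathway lists (number of genes in brackets), with the median as a black bar and calls at adjusted p below 0.05 in red. The lists centre near 0 apart from the ERK-induced targets, whose median is 0.27, and the 4 other Sprouty and SPRED genes, whose median is -0.23 with none called.

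The entries whose levels ran most like Dusp1 over the 6 libraries, of 8920 with a mean of at least 5 CPM, were Ap2a2, a clathrin adaptor subunit, Hbegf and Rtkn, which encodes rhotekin (Pearson r of log2 CPM 0.995, 0.995 and 0.995). Rtkn is listed at 0 in all 3 control libraries, against 13.4 ± 0.638 CPM in PERK-labelled libraries, at rank 1 by p among all tested entries. Its r reflects mainly that split between the groups, and the cause of the split was not tested. Ap2a2 was 225 ± 1.68 CPM in PERK-labelled and 200 ± 2.92 CPM in control libraries (SD, n = 3 each; log2 fold change 0.17, edgeR adjusted p = 0.0708). For the median of the 10 centred genes, the entries most like it included Yif1a and Gpc4 (r 0.991 and 0.985), at log2 fold changes 0.09 and 0.08 that did not pass (edgeR adjusted p = 0.483 and 0.46). With 6 libraries in 2 groups, r takes in the difference between the groups and is given as a description.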

How the data were processed

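RNA sequencing counts of 6 libraries, 3 labelled PERK and 3 control, were analysed. The authors deposited whole-number counts per gene, per the file headers, and these were used as they stand. Bowtie 0.12.2 and mm9 appear in the submitters' processing notes with no role, while the entries carry rat names, so which build and counter made the counts is unknown here. The deposited table also holds the authors' normalized signal, not used, and their test score, log2 fold changes and p-values, printed where named. A second deposited table has 6 columns that match no label and was not used.

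Counts were scaled by TMM, filtered with filterByExpr (minimum count 10) and tested with edgeR 4.0.16 (glmQLFit, glmQLFTest; R 4.3.3) on group alone, with Benjamini-Hochberg adjustment over all 14488 entries at 0.05. SE is the fold change over the square root of F. CPM uses TMM-scaled totals and is not per length, so a higher CPM of 1 gene than another does not show more transcripts. DESeq2 1.42.0, limma 3.58.1 (voom), a replicate block, other scalings and filters, a robust fit, counts divided by 6 and leaving out each library were alternatives. The steps were tested on simulated data. The 10 genes, the lists and the rule for named genes were chosen with earlier results of these data known. The rule takes the 10 genes, Eif2ak3, up to 3 called genes per pathway list or else its 2 genes of highest CPM, the 3 entries most like Dusp1 and most like the median, and the markers of highest CPM. One entry that the rule takes is not reported here. Values after ± are the SD over the 3 libraries of a group.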

Additional observations from a re-analysis of the deposited data

How the results depend on the processing

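Over all entries the 61 calls became 9 with a replicate block, 392 with DESeq2, 110 with limma voom, 33 with total count scaling, 94 without a low-count filter, 93 with counts divided by 6, 132 with the robust fit, and 12 to 38 with 1 library left out. Calls were higher in 73.8% of cases, against 63.5% in DESeq2 and 52.2% to 71.4% across the fits that leave out 1 library. Among the 10 genes the 2 calls became 0 with the block, 1 with total count scaling (Dusp1) and 0 to 1 with 1 library left out. Spry4 made them 3 with DESeq2, the robust fit, no low-count filter, a minimum count of 50 and counts divided by 6. Among the pathway lists the 3 calls became 1 with the block, 9 with DESeq2, 5 with the robust fit and 1 to 2 with 1 library left out. Fits without a library have less power by construction, and the replicate block likewise leaves fewer degrees of freedom to measure spread between libraries. For the other settings the cause was not tested. Same-numbered libraries shared little (correlations of deviations -0.177, 0.0387 and 0.0345), and the labels state no pairing. With 3 libraries per group these correlations cannot exclude that the numbers pair the libraries. With the block, Dusp1 and Dusp6 had edgeR adjusted p = 0.101 each. Low counts limit Dusp4 and Dusp5 most, with fitted coefficients of variation of 92.1% and 25.1%, and Dusp4 gave no fit with counts divided by 6 or a minimum count of 50.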
